A study of Homo sapiens with 6 samples.

Results

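Messenger RNA of 7 cadherins, CDH1, CDH2, CDH3, CDH4, CDH6, CDH11 and CDH13, was compared between control and BARD1-expressing ovarian carcinoma cells. The genes were taken by symbol from the deposited table, so they are 7 of 58735 annotated genes, and 6 of them had enough reads to be among the 15400 genes tested. Both groups carried the sample labels "stable cells" and 48 h, and they differ in the label for genotype, control or BARD1-expressing, with 3 libraries in each. The BARD1-expressing cells had been transduced with a lentivirus that carries the BARD1 reading frame, seen as GFP-BARD1 under the microscope. Which vector, if any, the control cells received, what drives the BARD1 insert, and whether the transduced cells were a clone or a pool are not stated in the sources used here. Titles call the cells OVCAR8ip1 whereas the tissue, source and cell line labels say SKOV3ip1, some of them tumors, so the line and the kind of material are in conflict. BARD1, which acts with BRCA1 as a ubiquitin ligase, stood at 17.9 ± 1.30 CPM (counts per 1000000 of the library total, TMM-scaled; SD, n = 3) in control cells and at 46.3 ± 2.43 CPM (SD, n = 3) in the other group, so it moved the way the labels say.

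Library totals ran from 21819199 to 23992482 counts in control cells and from 12744310 to 24349158 in BARD1-expressing cells. A count of 0 in a library allows up to 3 counts, or 0.124 to 0.236 CPM across the libraries, for counting error only. Of 7 markers of epithelial carcinoma, KRT7, KRT8, KRT18, EPCAM and PAX8 were well above that limit, and KRT19 and MUC16 had no count in any library. The endothelial marker list summed to 0.788 to 1.01 CPM in control and 1.49 to 2.32 CPM in BARD1-expressing libraries, and the leukocyte list to 0.788 to 1.16 and 0.865 to 2.12 CPM. The fibroblast list summed to 1010 to 1080 and 839 to 887 CPM, nearly all of it COL1A1 (-0.32 ± 0.047, edgeR adjusted p = 1.23e-05), while DCN had no count in any library. Of its 3 tested genes the other 2 were called higher, PDGFRB from 4.81 ± 0.634 to 13.8 ± 0.923 CPM (1.51 ± 0.129, edgeR adjusted p = 2.24e-09) and LUM (1.98 ± 0.519, edgeR adjusted p = 0.00527), which had at most 1.10 CPM in a library. The mesothelial list summed to 8.17 to 9.46 and 6.77 to 7.79 CPM, with ITLN1 at 0. Also called were the endothelial KDR (1.597 ± 0.476, called in 10 of 13 alternative fits) and the epithelial KRT7 (0.34 ± 0.049) upwards, and PAX8 (-0.65 ± 0.061) and the mesothelial CALB2 (-0.76 ± 0.270, called in 9 of 14) downwards. The part of such cells in the cadherin values was not tested.

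Cadherins are calcium-dependent adhesion proteins that bind the same kind of molecule on the neighbouring cell. The classical members span the membrane, and their cytoplasmic tail holds p120-catenin and beta-catenin, which links through alpha-catenin to actin. E-cadherin (CDH1) is the cadherin of epithelia, N-cadherin (CDH2) that of neural and mesenchymal cells, and the replacement of the first by the second, known as cadherin switching, accompanies epithelial-mesenchymal transition in many carcinomas. The ovarian surface epithelium is unusual in making N-cadherin while having an epithelial form. T-cadherin (CDH13) is not a classical cadherin in the strict sense, since it lacks the tail and is held in the membrane by a lipid anchor.

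The members are related in sequence, so the coding sequences of GENCODE release 29 were searched for exact runs that could blur their counts. Over 21 pairs of members the longest run shared by both coding sequences was 11 to 19 bases, the longest being that of CDH4 and CDH13, gtgctggaccgtgagtccc. The tail is where the classical members are most alike, and 60 coding bases from the tail are printed here, with CDH2 as the reference and capitals for bases that differ from it:
CDH2: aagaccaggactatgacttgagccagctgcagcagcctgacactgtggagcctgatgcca
CDH4: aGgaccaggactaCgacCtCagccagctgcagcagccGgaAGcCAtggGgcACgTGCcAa
CDH1: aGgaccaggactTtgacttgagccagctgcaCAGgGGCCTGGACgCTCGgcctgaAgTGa
CDH3: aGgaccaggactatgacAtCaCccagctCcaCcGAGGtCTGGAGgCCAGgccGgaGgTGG
Of these 60 bases CDH4 shared 44 with CDH2, CDH1 shared 39 and CDH3 shared 35. The stretch starts at a CDH2 run of 18 bases that also occurs in CDH1 coding sequences. Each other gene is shown by its best ungapped window. The stretch was thus picked for likeness, and no other stretch was compared in this way. The best ungapped windows of CDH11 and CDH13 shared 28 each and lay elsewhere in their coding sequences. CDH6 was not compared over this stretch. The read length is not stated in the sources used here.

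N-cadherin mRNA was by far the most abundant of the 7 in both groups. Per kilobase of the gene length in the table, CDH2 stood at 74.7 ± 3.30 CPM per kb in control cells, followed by CDH4 at 5.08 ± 0.263, CDH13 at 1.59 ± 0.0786, CDH3 at 0.936 ± 0.0326, CDH1 at 0.175 ± 0.0297 and CDH11 at 0.0617 ± 0.0135 (SD, n = 3 each). CDH6 came last, with 1 read in all control libraries. In BARD1-expressing cells the order was the same, and in neither group did the libraries of neighbours in that order overlap. The smallest step was 1.70-fold in control cells, between CDH13 and CDH3, and 1.51-fold in BARD1-expressing cells, between CDH1 and CDH11, genes with 12 to 33 reads per library. That last step depends on the length scaling. Without it CDH11 stood above CDH1 in BARD1-expressing cells, at 1.43 ± 0.274 against 0.999 ± 0.0593 CPM (SD, n = 3 each). Among all tested genes the per-length level of CDH2 lay at the 96.5th percentile in control cells and that of CDH1 at the 5.71st.

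**Figure D1:**
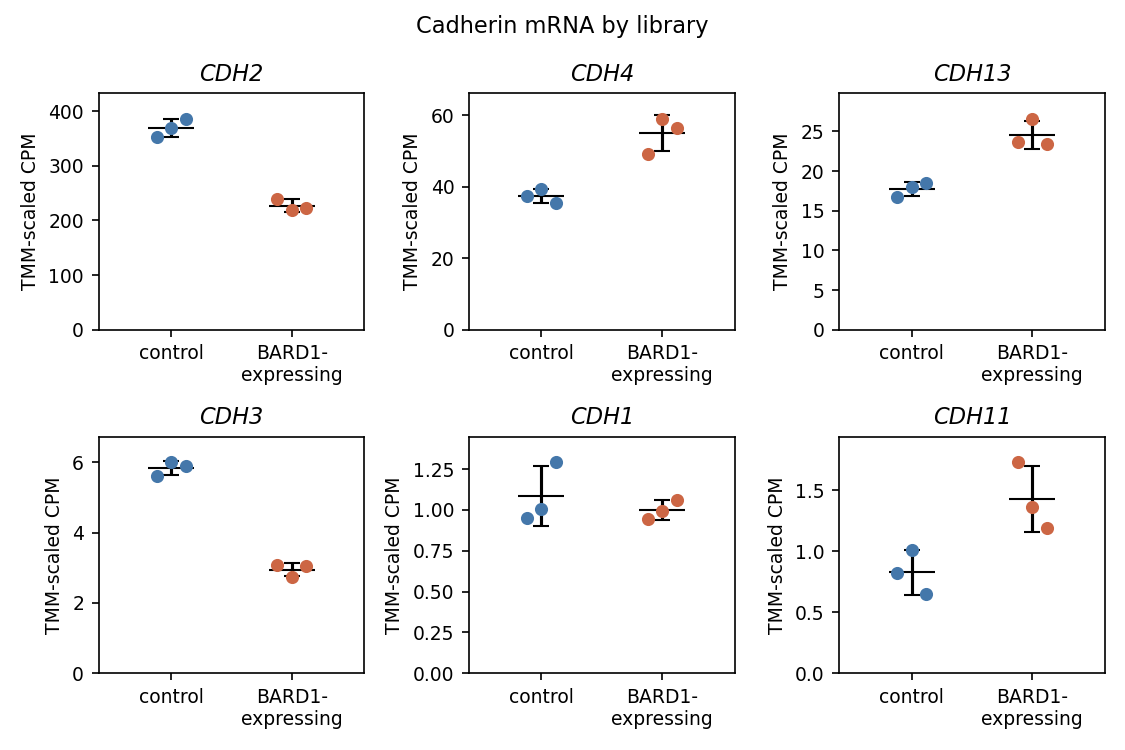
TMM-scaled CPM (vertical axis, from 0) of the 6 tested cadherins in each library; points are libraries, horizontal bars and error bars are the mean and SD of 3 libraries per group. The groups are apart at CDH2, CDH4, CDH13, CDH3 and CDH11, and they overlap at CDH1.

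Of the 6 tested members, 2 were higher in BARD1-expressing cells (CDH4 and CDH13), 2 were lower (CDH2 and CDH3), and CDH1 and CDH11 did not pass the test. A gene is called at an adjusted p under 0.05 (edgeR quasi-likelihood F test, Benjamini-Hochberg over all 15400 tested genes), and by that rule 29.0% of all tested genes were called, 16.5% higher and 12.4% lower. The libraries of the groups did not overlap at 5 of the 6 members, against 40.9% of all tested genes. The median log2 fold change (BARD1-expressing over control) of the 6 members was 0.18, against -0.0027 for all tested genes. Since these are bulk libraries, fewer cells that make a transcript and less of it per cell cannot be told apart, and an effect of BARD1 cannot be told apart from other differences between the cell populations. At the 5 members without overlap a two-sided exact permutation test on log2 CPM reached p = 0.1, which is the lowest value possible with 3 libraries a group.

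N-cadherin (CDH2; ENSG00000170558, chromosome 18, 27950966 to 28177446, minus strand, GRCh38) was lower in BARD1-expressing cells. The control libraries held 353.5, 369.4 and 386.2 CPM of CDH2 (8570, 8434 and 8371 reads) and the BARD1-expressing libraries 240.1, 218.3 and 223.0 CPM (3053, 5286 and 3360 reads). Every BARD1-expressing library lay below every control library, and the gap between the groups was wider than the range within either. The mean level went from 369.7 ± 16.3 to 227.1 ± 11.5 CPM (SD, n = 3 each), a log2 fold change of -0.70 ± 0.052 (SE, edgeR adjusted p = 2.11e-10), or 1.63-fold lower. It remained the most abundant of the 7, at the 93.5th percentile of tested genes per length.

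CDH2 lies on chromosome 18, where 170 of 228 tested genes (74.6%) were called lower; elsewhere in the genome 11.5% were. The median log2 fold change of the other 227 tested genes of the chromosome was -0.66, and 104 of them (45.8%) had a lower log2 fold change than CDH2. Set against the median of those 227 genes in the same library, CDH2 deviated from its own control mean by -0.04, 0.01 and 0.02 in the control libraries and by -0.03, -0.04 and -0.10 in the BARD1-expressing libraries (log2 scale). By that measure the groups overlapped, and the mean difference was -0.05. Set against its 50 nearest tested protein-coding genes, 43 of them lower and none higher, the deviations were -0.03, 0.01 and 0.02 in control libraries and -0.13, -0.11 and -0.14 in BARD1-expressing libraries, which did not overlap. The fall of CDH2 was therefore of the size of the median over its whole chromosome and 0.13 on the log2 scale beyond the median of its neighbourhood. That whole-chromosome median mixes levels, since genes toward the far end tended to fall more. Examples beyond CDH2 are TPGS2 (-0.91), PIK3C3 (-1.07), ME2 (-1.29) and CNDP2 (-1.28). Examples before it are SS18 (-0.49), NPC1 (-0.47) and MIB1 (-0.44). Exceptions lay on both sides, among them NFATC1 (0.56) beyond CDH2 and LAMA3 (-1.41) before it. These values are descriptions, and a change particular to CDH2 cannot be told apart here from the chromosome-wide one.

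**Figure D2:**
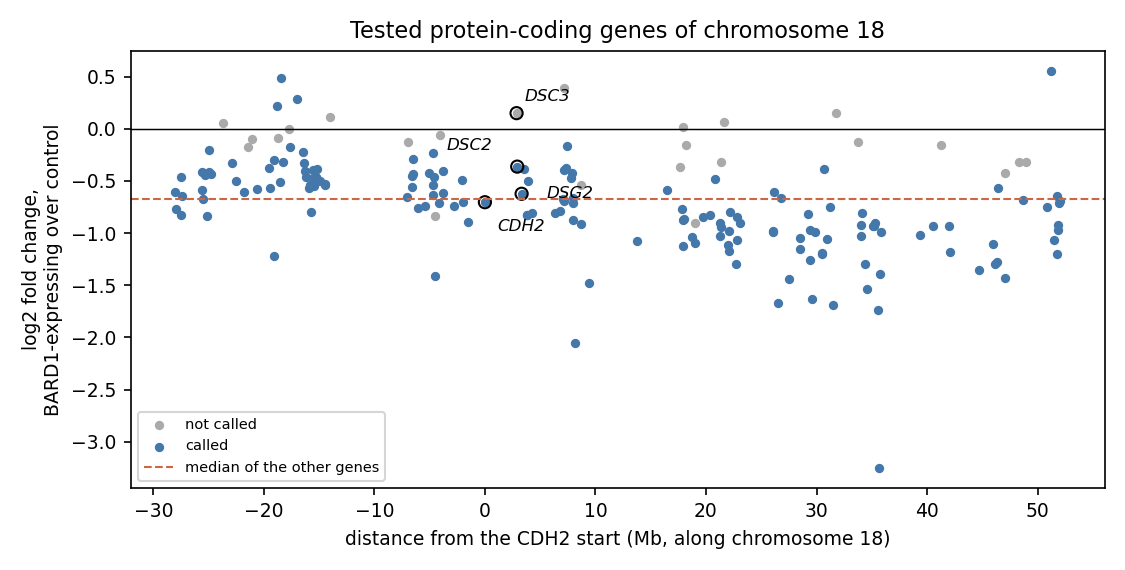
Log2 fold change (vertical axis) of each tested protein-coding gene of chromosome 18 by its distance in Mb from the CDH2 start (horizontal axis); blue points are called genes, grey points are not, and the dashed line is the median of the genes other than CDH2. CDH2 (-0.70) lies near that line, DSG2 and DSC2 lie above it, and DSC3 lies above 0.

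R-cadherin (CDH4; ENSG00000179242, chromosome 20, 61252426 to 61940617, plus strand), named for the retina, rose. Among the members printed above it was the closest to N-cadherin in the tail stretch. The control libraries held 37.4, 39.3 and 35.4 CPM of CDH4 (906, 897 and 768 reads) and the BARD1-expressing libraries 49.3, 59.05 and 56.6 CPM (627, 1430 and 853 reads). All 3 BARD1-expressing libraries were above all control libraries, with the first of them the lowest. The mean went from 37.4 ± 1.93 to 54.99 ± 5.07 CPM (SD, n = 3 each), a log2 fold change of 0.56 ± 0.075 (SE, edgeR adjusted p = 2.90e-06). Its 50 nearest tested protein-coding genes had a median of 0.06, with 13 higher and 3 lower.

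The N-cadherin and R-cadherin transcripts thus moved in opposite directions within the same libraries. Per kilobase there were 14.0, 14.0 and 16.2 times as much CDH2 as CDH4 in the control libraries, and 7.23, 5.49 and 5.85 times as much in the BARD1-expressing libraries. Sequences around a start site of each, from the RefSeq table on GRCh38.p14, are shown because these are the 2 most abundant members and moved oppositely. They run from 250 bases before to 50 after the start, with capitals for CAGGTG or CACCTG (one motif read on both strands, the E-box that SNAI and ZEB repressors are known to bind):
CDH2, chr18:28177081-28177380, minus strand: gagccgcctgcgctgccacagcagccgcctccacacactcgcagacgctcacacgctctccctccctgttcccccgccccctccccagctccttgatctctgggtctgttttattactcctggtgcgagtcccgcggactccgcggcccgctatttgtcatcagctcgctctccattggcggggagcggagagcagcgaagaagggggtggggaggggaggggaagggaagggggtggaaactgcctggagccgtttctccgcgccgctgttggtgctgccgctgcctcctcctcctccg
CDH4, chr20:61499171-61499470, plus strand: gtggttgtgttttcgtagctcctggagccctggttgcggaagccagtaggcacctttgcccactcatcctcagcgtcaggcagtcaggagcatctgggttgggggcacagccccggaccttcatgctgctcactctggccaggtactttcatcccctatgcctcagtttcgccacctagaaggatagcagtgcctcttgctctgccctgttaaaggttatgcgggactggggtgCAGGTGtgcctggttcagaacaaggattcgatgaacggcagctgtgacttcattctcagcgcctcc
The table gives 2 starts for each gene, of which 1 is printed. Of the 2 CDH2 sequences neither held such an E-box, and of the 2 CDH4 sequences the printed one held 1 and the other none; 20.6% of 35116 promoter sequences of this length in the table held at least 1. The printed CDH2 sequence held 23 CpG dinucleotides and the other 4, the printed CDH4 sequence 9 and the other 14, against a median of 14 in the table. Which gene held more therefore depends on the start taken. The CDH4 start shown lies 247 kb inside the gene as annotated in the counts, and the counts do not tell which start was used. The table held sequences for 2 of the 7 members, CDH2 and CDH4.

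T-cadherin (CDH13; ENSG00000140945, chromosome 16, 82626803 to 83800640, plus strand), a lipid-anchored receptor that also binds adiponectin, rose as well. The control libraries held 16.79, 18.002 and 18.499 CPM of CDH13 (407, 411 and 401 reads) and the BARD1-expressing libraries 23.7, 26.6 and 23.4 CPM (301, 644 and 353 reads). The groups did not overlap. The mean went from 17.8 ± 0.879 to 24.6 ± 1.76 CPM (SD, n = 3 each), a log2 fold change of 0.47 ± 0.090 (SE, edgeR adjusted p = 0.000245), whereas its 50 nearest tested protein-coding genes had a median of -0.0077. CDH13 spans 1170 kb and overlaps 11 other annotated genes, which together held 22 reads in all 6 libraries.

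P-cadherin (CDH3; ENSG00000062038, chromosome 16, 68636189 to 68722616, plus strand), the placental cadherin found in basal layers of epithelia, had the lowest log2 fold change of the 6 tested members. The control libraries held 5.61, 6.001 and 5.905 CPM of CDH3 (136, 137 and 128 reads) and the BARD1-expressing libraries 3.07, 2.73 and 3.05 CPM (39, 66 and 46 reads). The groups lay far apart, with little spread in either. The mean fell from 5.84 ± 0.203 to 2.95 ± 0.193 CPM (SD, n = 3 each), a log2 fold change of -0.997 ± 0.166 (SE, edgeR adjusted p = 5.83e-05), or 2.00-fold lower.

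E-cadherin (CDH1; ENSG00000039068, chromosome 16, 68737225 to 68835548, plus strand) starts 14.6 kb after the end of CDH3 and was low in both groups. The control libraries held 0.949, 1.007 and 1.29 CPM of CDH1 (23, 23 and 28 reads) and the BARD1-expressing libraries 0.944, 0.991 and 1.06 CPM (12, 24 and 16 reads). The groups overlapped. The log2 fold change was -0.11 ± 0.324 (SE, edgeR adjusted p = 0.843), and an interval of 1.96 SE runs from -0.75 to 0.53, so a moderate change either way was not detectable at this depth. Per kilobase there were 373 to 465 times as much CDH2 as CDH1 in control libraries and 262 to 317 times as much in BARD1-expressing libraries (CDH1 itself was not called). Of the 5 nearest tested protein-coding genes on each side of the CDH3 and CDH1 pair, none was higher and 2 were lower. Among all tested genes 16.5% were higher and 12.4% lower. SMPD3, which encodes a sphingomyelinase, had only 0.918 CPM in control and 0.321 CPM in BARD1-expressing cells (-1.47 ± 0.427, edgeR adjusted p = 0.0109). The ribosome assembly gene UTP4 had 149 and 129 CPM (-0.21 ± 0.057, edgeR adjusted p = 0.00765).

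OB-cadherin (CDH11; ENSG00000140937, chromosome 16, 64943753 to 65126112, minus strand), typical of osteoblasts and other mesenchymal cells, had few reads. The control libraries held 0.825, 1.007 and 0.646 CPM of CDH11 (20, 23 and 14 reads) and the BARD1-expressing libraries 1.73, 1.36 and 1.19 CPM (22, 33 and 18 reads). The groups did not overlap, but the log2 fold change of 0.77 ± 0.327 did not pass (SE, edgeR adjusted p = 0.0834, unadjusted p = 0.0277). Per length it lay at the 1.30th percentile of tested genes in control cells and at the 2.17th in BARD1-expressing cells. K-cadherin (CDH6; ENSG00000113361, chromosome 5, 31193750 to 31329146, plus strand), a kidney cadherin that many ovarian carcinomas make, had 1 read in control library 1, 1 read in BARD1-expressing library 3 and 0 in each of the other 4. It was not tested, and both groups were under the limit of 3 counts per library.

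Annotated genes that overlap a member were nearly silent. None of them was tested, and the largest, an antisense gene within CDH2, had 28 reads over all 6 libraries, against 25375 CDH2 reads in the control libraries alone. The antisense gene within CDH3 had 17 reads, against 401 CDH3 reads in control and 151 in BARD1-expressing libraries. The strand setting of the counting is not stated in the sources used here.

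The make-up of the cadherin transcripts differed between the groups, with CDH2 lower and CDH4 and CDH13 higher. Of the summed CPM per kb of the 7 members, CDH2 made up 90.3%, 90.2% and 91.0% in the control libraries and 83.5%, 79.9% and 81.0% in the BARD1-expressing libraries. CDH4 went from 6.17% ± 0.471 to 13.3% ± 1.57 and CDH13 from 1.92% ± 0.024 to 3.91% ± 0.353 (SD, n = 3 each). CDH3 went from 1.14% ± 0.0287 to 0.840% ± 0.0449, and CDH1 from 0.212% ± 0.028 to 0.288% ± 0.0233 (SD, n = 3 each), a larger share of a smaller sum. That sum was 82.5 ± 3.29 CPM per kb in control and 56.3 ± 1.58 CPM per kb with BARD1 expressed (SD, n = 3 each). The shares depend on each other, since they add to 100%, and are given with no test. CDH2 weighs most in them, and its log2 fold change (-0.70) was near the median of the other chromosome 18 genes (-0.66). How far the shares reflect that chromosome-wide fall was not tested.

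**Figure D3:**
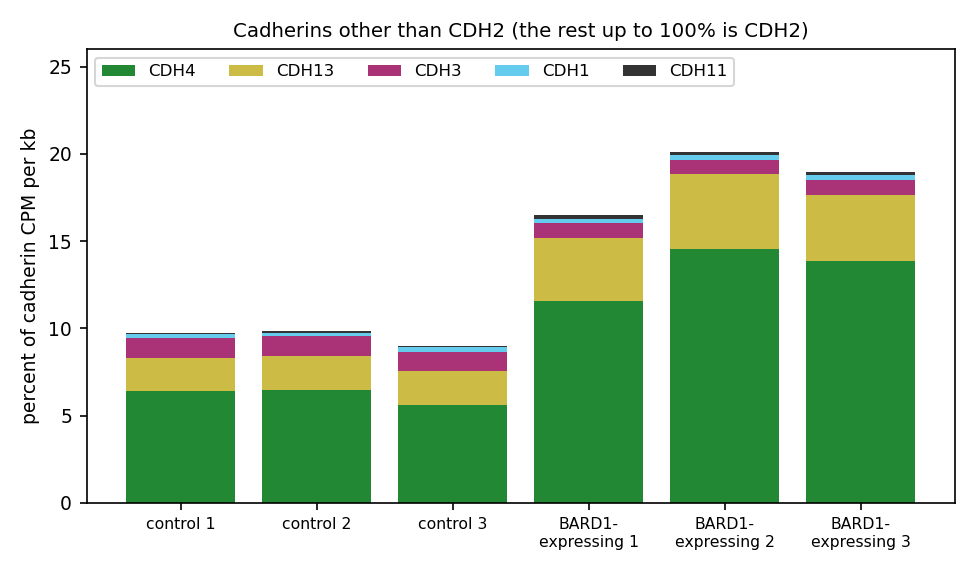
Share in percent of the summed CPM per kb of the 7 cadherins (vertical axis) taken by CDH4, CDH13, CDH3, CDH1 and CDH11 in each library (bars); the remainder is CDH2, and CDH6 is too low to draw. The CDH4 share is 11.5% to 14.6% in the BARD1-expressing libraries and 5.63% to 6.46% in the control libraries.

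Desmosomal cadherins, which tie cells to keratin filaments in place of actin, also lie on chromosome 18. The 3 tested ones start 2.87 to 3.32 Mb from the CDH2 start. Of 7 listed, 3 were tested, none was called higher and 2 were lower (median log2 fold change -0.36). On all of chromosome 18, 74.6% of tested genes were lower, and 11.5% on the other chromosomes. Desmoglein DSG2 fell from 373.5 ± 17.8 to 242.7 ± 15.3 CPM (-0.62 ± 0.054, edgeR adjusted p = 2.83e-09). Desmocollin DSC2 fell from 29.3 ± 1.65 to 22.8 ± 0.534 CPM (-0.36 ± 0.081, edgeR adjusted p = 0.0014). DSC3, the gene next to DSC2, had 47.4, 48.3 and 50.3 CPM in control and 56.9, 51.6 and 53.7 CPM in BARD1-expressing libraries and did not pass (0.15 ± 0.067, edgeR adjusted p = 0.0994). Of its 50 nearest tested protein-coding genes 44 were lower and none was higher.

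Of 16 other cadherins, 4 were tested, and 1 was called, against 29.0% of all tested genes. CDH23, a cadherin of hair-cell tip links, had 0.660, 0.526 and 0.369 CPM in control and 2.202, 0.991 and 0.929 CPM in BARD1-expressing libraries, the first standing above the other two. Its log2 fold change of 1.32 ± 0.405 (edgeR adjusted p = 0.0159) was 0.87 without that library (adjusted p = 0.147), and the call was also lost without control 3 (adjusted p = 0.0636). CDH24, the most abundant of these, had 51.2 ± 5.32 and 52.3 ± 2.59 CPM (SD, n = 3 each; 0.03 ± 0.075, edgeR adjusted p = 0.785). The endothelial cadherin CDH5 had 3 reads or fewer in each library, as had 9 others of the list, 4 of them with none at all.

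Among 12 listed catenins and adaptors, 11 were tested, 3 were higher and 1 was lower (median 0.04). The shares over all tested genes were 16.5% higher and 12.4% lower. Beta-catenin (CTNNB1) had 502.7 ± 12.9 and 515.8 ± 21.3 CPM (0.04 ± 0.048, edgeR adjusted p = 0.625) and p120-catenin (CTNND1) 242.5 ± 6.30 and 238.2 ± 6.51 CPM (-0.03 ± 0.049, edgeR adjusted p = 0.741), so neither was called. Alpha-catenin (CTNNA1), the link to actin, rose from 447.5 ± 11.9 to 749.9 ± 25.6 CPM (SD, n = 3 each; 0.74 ± 0.048, edgeR adjusted p = 2.02e-11). It lies on chromosome 5 in a raised stretch, where 41 of its 50 nearest tested protein-coding genes were higher, none was lower and their median was 0.59. Plakoglobin (JUP), which serves both adherens junctions and desmosomes, rose from 52.1 ± 3.04 to 73.9 ± 2.70 CPM (0.50 ± 0.065, edgeR adjusted p = 1.73e-06), and the median of its 50 neighbours was -0.00024. Afadin (AFDN), which joins nectins to actin, fell from 99.99 ± 2.86 to 78.9 ± 3.40 CPM (-0.34 ± 0.058, edgeR adjusted p = 6.08e-05). The neuronal alpha-catenin CTNNA2 had under 1 CPM in each library, and its call (1.09 ± 0.410, edgeR adjusted p = 0.0485) held in 3 of 13 alternative fits.

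Of 4 nectins, the immunoglobulin-like molecules that initiate adherens junctions, 3 were tested, 2 were higher and none was lower (median 0.37). NECTIN1 rose from 5.82 ± 0.436 to 9.75 ± 0.771 CPM (0.76 ± 0.130, edgeR adjusted p = 8.47e-05) and NECTIN2 from 112 ± 2.08 to 145 ± 2.82 CPM (0.37 ± 0.052, edgeR adjusted p = 6.35e-06). NECTIN3 had 50.5 CPM in both groups (-0.0093 ± 0.089). Of 11 genes of cadherin processing and turnover, all tested, 2 were higher and none was lower (median 0.06). Beside both lists, 16.5% of all tested genes were higher and 12.4% lower. FURIN, the protease that removes the cadherin propeptide, rose from 27.95 ± 0.502 to 35.9 ± 2.80 CPM (0.37 ± 0.078, edgeR adjusted p = 0.000813). ADAM10, which sheds the ectodomain of N- and E-cadherin, rose from 138 ± 6.26 to 156.5 ± 6.49 CPM (0.18 ± 0.054, edgeR adjusted p = 0.0147). That call was lost without control 1, control 2 or BARD1-expressing 3 (adjusted p = 0.118, 0.0589 and 0.0663).

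The transcription factors known to drive cadherin switching changed in both directions. Of 6, all tested, 2 were higher and 2 were lower (median -0.03), where 16.5% of all tested genes were higher and 12.4% lower. The repressor genes SNAI1 and SNAI2 moved oppositely, SNAI1 from 6.25 ± 0.726 to 9.48 ± 1.17 CPM (0.60 ± 0.137, edgeR adjusted p = 0.00167) and SNAI2 from 12.5 ± 1.35 to 8.11 ± 0.381 CPM (-0.61 ± 0.119, edgeR adjusted p = 0.000336). TWIST2 fell from 14.9 ± 0.637 to 10.1 ± 0.434 CPM (-0.55 ± 0.105, edgeR adjusted p = 0.000292), and TWIST1 rose from 11.7 ± 0.310 to 15.1 ± 2.28 CPM (0.38 ± 0.113, edgeR adjusted p = 0.0121). The TWIST1 call was lost without BARD1-expressing 2 or 3 (adjusted p = 0.111 and 0.0595). ZEB1 (0.06 ± 0.077) and ZEB2 (-0.12 ± 0.065) were not called. Of 10 genes that go with E-cadherin in epithelia, 4 were tested, 2 were higher and none was lower (median 0.27), beside the same shares. These were the splicing regulators ESRP2 (7.18 ± 0.393 to 10.99 ± 0.396 CPM; 0.62 ± 0.119, edgeR adjusted p = 0.000311) and ESRP1 (5.30 ± 0.643 to 7.17 ± 0.547 CPM; 0.44 ± 0.146, edgeR adjusted p = 0.026), the call of ESRP1 being lost in 4 of 14 alternative fits, among them those without control 2, BARD1-expressing 2 or BARD1-expressing 3. EPCAM had 19.2 ± 0.491 and 19.0 ± 1.01 CPM (-0.02 ± 0.090), and GRHL2, an activator of CDH1, had no count in any library.

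Each list is small, so its counts are descriptions, and no list was tested as a set. The counts of 0 in these lists are edgeR calls. At an unadjusted p under 0.05 the desmosomal list had 1 gene higher (DSC3) and the processing list 2 lower (APH1A, a gamma-secretase subunit, and NUMB, an endocytic adaptor), while the nectin and epithelial lists had 0 lower. With DESeq2 all 4 counts were 0 as well.

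**Figure D4:**
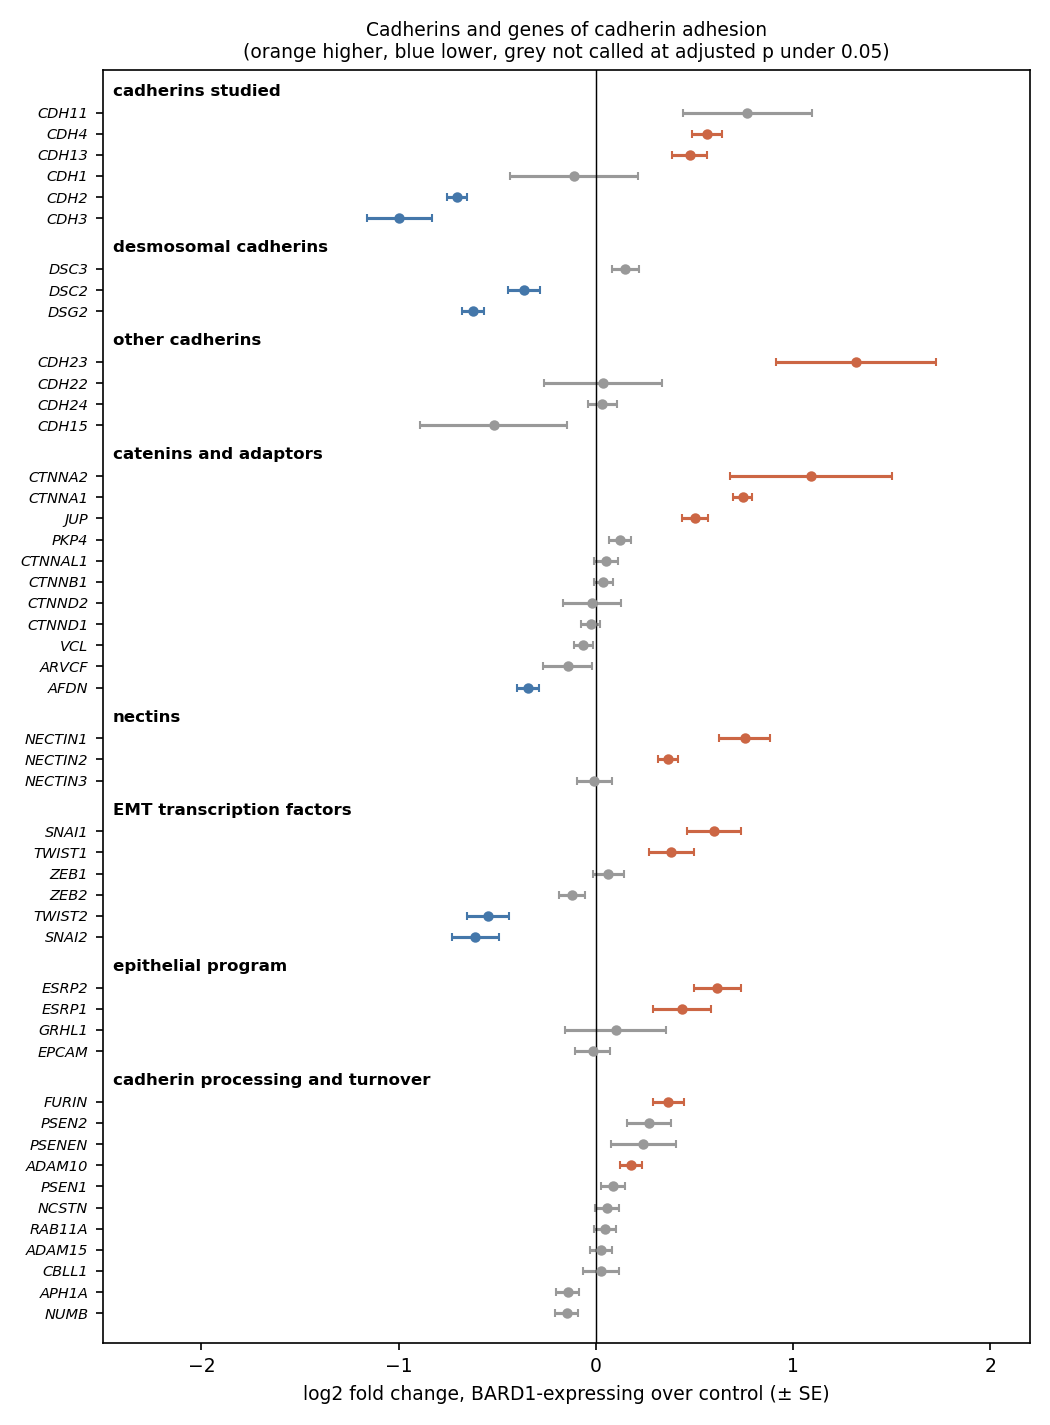
Log2 fold change (horizontal axis, BARD1-expressing over control, error bars SE) of each tested cadherin and each tested gene of the 7 other lists; orange points are called higher, blue points called lower and grey points not called. The cadherins studied, the catenins and adaptors, and the EMT transcription factors hold calls in both directions. The desmosomal list holds only lower calls and the remaining lists only higher ones. Within the EMT transcription factors SNAI1 and TWIST1 lie opposite to SNAI2 and TWIST2.

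For each called member the 3 genes with the most similar profile were sought among 10846 other tested genes averaging 5 CPM or more. Likeness was the root mean square difference over the 6 libraries of log2 CPM centred on the control mean. Nearest to CDH2 were TSPAN5 (0.0257), TAF4B (0.0334) and ELP2 (0.0346), of which TAF4B and ELP2 also lie on chromosome 18. Nearest to CDH3 were NARS (0.049), GJA1 (0.0558) and TMX3 (0.0585), of which NARS and TMX3 lie on chromosome 18 although CDH3 does not. Nearest to CDH4 were HS3ST3A1 (0.0302), PCK2 (0.0306) and LMNA (0.0426), and among the nearest to CDH13 were HARS2 (0.0385) and ZBTB42 (0.0468). With 2 groups these distances mostly reflect the size of the group difference.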

How the data were processed

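Poly(A)-selected RNA of 3 control and 3 BARD1-expressing libraries was analysed from raw read counts per gene that the authors deposited. The build GRCh38 and the tools DESeq2 1.20.0, featureCounts 1.5.0-p3 and HISAT2 2.0.5 come from the submitters' processing notes, which give no options. Start and end of 58724 of the 58735 genes, all 7 cadherins among them, equalled those of GENCODE release 29.

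The test was run with edgeR 4.0.16 (R 4.3.3) after filterByExpr, TMM scaling and a robust quasi-likelihood fit of group alone (4 residual degrees of freedom). SE is the absolute log2 fold change over the square root of F. As a check of the code only, the script was also run on counts simulated with known changes from dispersions estimated in these data. Libraries of a group differed by more than sampling noise (chi-square per degree of freedom 3.41 to 8.11, for genes with 20 or more counts in the pair compared). The titles call the replicates biological without naming separate cultures or transductions, so p-values measure only the spread between these samples, part of which may be technical.

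The 7 cadherins, the 7 gene lists and the marker lists were chosen with earlier results of these data known. Named genes are the members, up to 5 called genes per list by p, the 3 nearest profiles per called member (1 of them is not reported here), and BARD1. SMPD3, UTP4 and uncalled or untested genes were named after their values were seen. Alternatives were RLE size factors, TMM without chromosome 18 and mitochondrial genes, 2 other filters (no filter, or at least 1 CPM in 3 libraries), DESeq2 1.42.0, limma-voom (limma 3.58.1), a non-robust fit, a replicate block and leaving out each library.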

Additional observations from a re-analysis of the deposited data

How the results depend on the processing

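CDH2, CDH3, CDH4 and CDH13 kept their direction and their call in 14 of 14 alternative fits each, and CDH1 and CDH11 were called in none. With 1 library left out the log2 fold changes ran from -0.75 to -0.67 for CDH2, -1.03 to -0.93 for CDH3, 0.50 to 0.63 for CDH4, 0.40 to 0.50 for CDH13 and 0.62 to 0.93 for CDH11. That of CDH1 ran from -0.20 to 0.03, turning above 0 (0.031) without control 3, where it rests on 2 control libraries. The count of called genes was 3317 to 4755 with 1 library left out, 3853 with DESeq2 and 4419 without a filter, against 4460. The count of called list genes other than the members was 13 to 18 with 1 library left out, against 17. The difference between groups of CDH2 against its chromosome was -0.05, and -0.13 against its 50 nearest genes (-0.07 to -0.03 for the first with 1 library left out). The CDH2 share of cadherin transcripts changed by -9.02 percentage points per kilobase and by -12.7 percentage points without length scaling, a scale on which the longer CDH4 and CDH13 weigh more.

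Replicate numbers are shared by the groups. Deviations from the group means correlated at r = -0.34, -0.03 and -0.05 between same-numbered libraries (10847 genes). Between libraries of different number r ran from -0.31 to 0.33. Since differently numbered libraries correlated about as strongly, these values cannot decide whether the numbers mark pairs. With a replicate block 3990 genes were called, CDH2 was at -0.70, and no call of the 6 tested members changed, whereas CTNNA2 was not called (adjusted p = 0.0819). Depth limits CDH1, CDH11 and CDH6, which had at most 33 reads per library.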

Other observations

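Of the cadherins with too few reads to be tested, CDH20, on chromosome 18, had 2, 4 and 5 control reads and none in any BARD1-expressing library. Those control reads are 0.0825, 0.175 and 0.231 CPM, while a count of 0 allows up to 0.236, 0.124 and 0.199 CPM in BARD1-expressing libraries 1, 2 and 3. In the fit without a filter on low counts CDH20 was not called (edgeR adjusted p = 0.063). CDH18 had 0, 0 and 2 reads in control and 3, 7 and 0 in BARD1-expressing libraries, so its groups overlapped. CDH7 and CDH19, the other listed cadherins of chromosome 18, had at most 3 reads in a library. The epithelial transcription factor gene OVOL2 had 1, 0 and 0 reads in control and 3, 3 and 6 in BARD1-expressing libraries, and was not tested. Those BARD1-expressing reads are 0.236, 0.124 and 0.398 CPM. A count of 0 allows up to 0.131 and 0.138 CPM in controls 2 and 3, above the value of BARD1-expressing library 2. CDH3 fell by 0.997 on the log2 scale although the median of its 50 nearest tested protein-coding genes was -0.08, with 5 higher and 7 lower, a contrast with CDH2, whose 50 nearest had a median of -0.59.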
